A study of Mus musculus with 8 samples.

Results

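The 36 genes described here carry amino acids into the cell, make them, load them onto tRNA, or answer to the transcription factor ATF4. They were taken by gene symbol from a table of 43432 genes and comprise 7 amino acid transporters, 7 enzymes of serine and one-carbon metabolism, 5 enzymes of asparagine, proline and transsulfuration metabolism, 5 genes of ATF4 and its stress targets, and 12 cytosolic tRNA synthetases. Each symbol matched 1 row, and all 36 had a mean normalized count of at least 1, as did 18971 genes of the table, which were the genes tested. RNA was sequenced from OT-I cells, CD8+ T cells of C57BL/6 mice whose transgenic receptor recognises a peptide of ovalbumin. They spent 72 hours in culture with dendritic cells (DC) carrying antigen, after which the divided T cells were collected by flow sorting. The DC partner was the migratory CD103+ DC (3 libraries), the LN resident CD8a+ DC (3 libraries) or the migratory CD11b+ DC (2 libraries, replicates 2 and 3). All groups shared the culture medium, RPMI with 10% FBS and beta-mercaptoethanol, and nothing in the labels says whether the replicates came from separate mice or cultures, so the p-values measure the spread between these libraries, which may be technical.

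A dividing T cell builds protein and nucleotides faster than it can make every amino acid, so activation is known to raise transporters of neutral and cationic amino acids, the serine pathway that feeds one-carbon units to nucleotide synthesis, and the enzymes that charge tRNA. When an amino acid runs short, or cystine uptake fails to keep up with oxidation, the kinase GCN2 and related kinases phosphorylate eIF2 alpha, ATF4 is translated, and ATF4 with C/EBP partners binds the C/EBP-ATF response element of its targets. Many of the genes in this set are such targets, among them Asns, Psat1, Slc7a11, Chac1, Trib3 and Sesn2. In cell culture, beta-mercaptoethanol is known to help cells take up cystine by routes other than the cystine transporter.

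The libraries held 16293042 to 21973391 reads on genes, recovered from the steps of the normalized counts. Levels are given as CPM, the normalized count scaled so that each library sums to 1000000. The 10 T cell markers summed to 7028 to 7115 CPM with CD103+ DC, 5839 to 6792 CPM with CD8a+ DC and 6758 to 7726 CPM with CD11b+ DC, so transcripts of the labelled cell type were present in every library. The 19 DC markers summed to 515 to 628 CPM with CD103+ DC, 189 to 390 CPM with CD8a+ DC and 514 to 652 CPM with CD11b+ DC, with 2, 3 and 3 of the 19 at 0 in every library of those groups, and Ccl22, Ly75 and Cst3 led that sum. The 6 macrophage and monocyte markers summed to at most 1.04 CPM in any library. Of the 6 B cell markers, Pax5 was at 0 in every library and Ighm alone held 928 to 1208 CPM, while the list as a whole ran over 935 to 1060 CPM with CD103+ DC, 948 to 1231 CPM with CD8a+ DC and 1142 to 1189 CPM with CD11b+ DC. Of the reads, mitochondrially encoded genes held 6.69% to 7.72% in CD103+ DC libraries, 9.12% to 11.8% in CD8a+ DC libraries and 7.02% to 7.20% in CD11b+ DC libraries. In these bulk samples, fewer cells of a type and less RNA per cell cannot be told apart.

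Slc7a11 and Psat1 were the genes of the set that passed the test in any comparison, 1 call each. Slc7a11, the cystine/glutamate transporter xCT, was lower in T cells cultured with CD103+ DC than with CD11b+ DC, and Psat1, the phosphoserine aminotransferase of serine synthesis, was higher with CD8a+ DC than with CD11b+ DC. The test was limma-trend on log2(normalized count + 1), with Benjamini-Hochberg adjustment over all 18971 genes of a comparison and a threshold of 0.05. Between CD103+ and CD8a+ DC none of the 36 genes passed, where 1.44% of all genes did (0.891% higher and 0.548% lower). Between CD103+ and CD11b+ DC 1 of 36 passed, where 0.332% of all genes did (0.132% higher and 0.2% lower), and between CD8a+ and CD11b+ DC 1 of 36 passed, where 1.97% of all genes did (1.07% higher and 0.901% lower). At an unadjusted p under 0.05 the set had 5 genes (13.9%) for CD103+ over CD8a+ DC against a background of 13.2%, 7 genes (19.4%) for CD103+ over CD11b+ DC against 9.32%, and 10 genes (27.8%) for CD8a+ over CD11b+ DC against 13.6%.

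**Figure D1:**
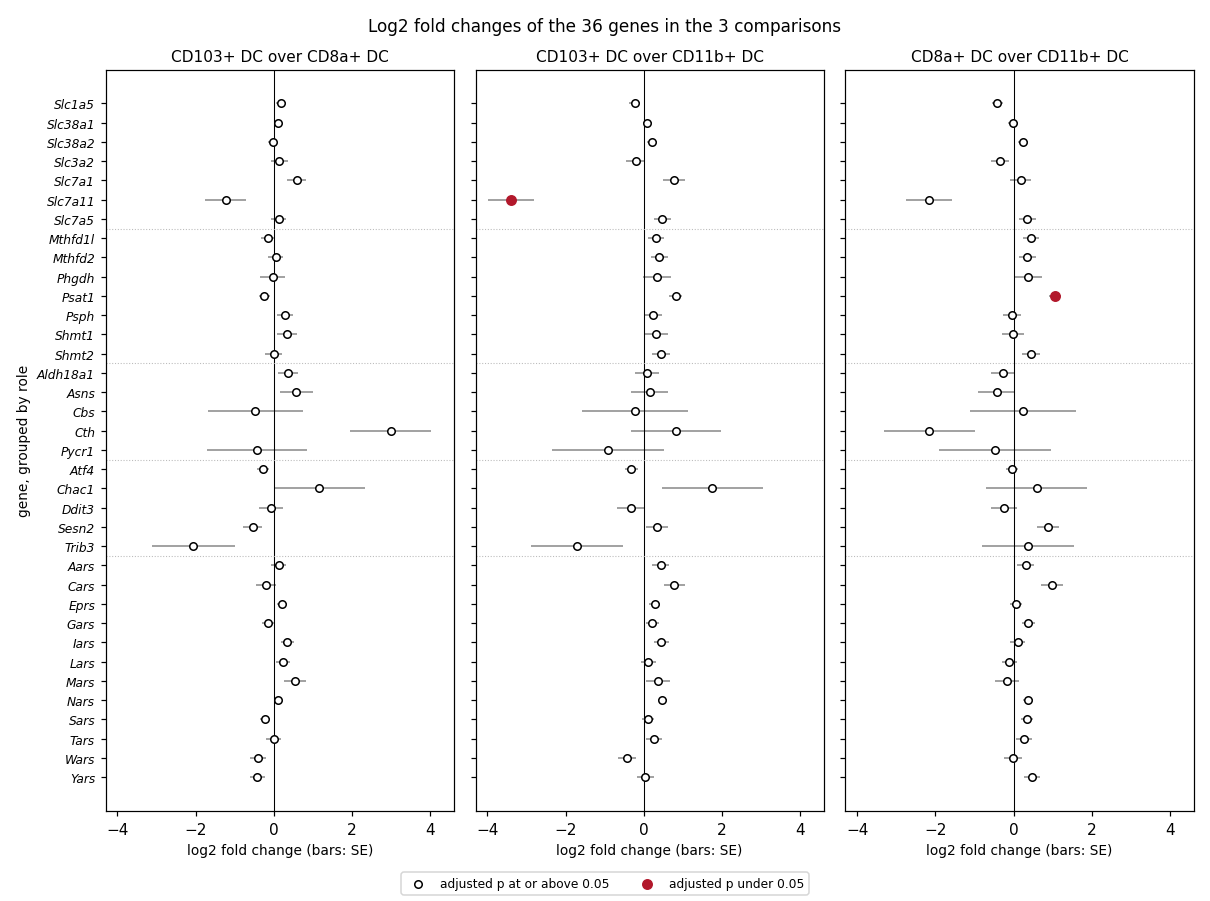
Log2 fold change of each of the 36 genes (x axis) in the 3 comparisons of DC partners, from limma-trend. Genes are grouped by role down the page, and bars show the SE, which is narrower than the 95% interval. Filled points passed at an adjusted p under 0.05, which were Slc7a11 for CD103+ over CD11b+ DC, at -3.40, and Psat1 for CD8a+ over CD11b+ DC, at 1.06.

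As a set, the genes sat near the middle of all genes when CD103+ and CD8a+ DC were compared and above it in both comparisons with CD11b+ DC. The median log2 fold change of the 36 was 0.02 for CD103+ over CD8a+ DC, beside 0.02 over all genes tested, with 18 of 36 above 0. For CD103+ over CD11b+ DC it was 0.25, beside -0.00 over all genes, with 27 of 36 above 0. For CD8a+ over CD11b+ DC it was 0.21, beside -0.04 over all genes, with 21 of 36 above 0. These comparisons share libraries, and the last 2 medians both rest on the same 2 CD11b+ DC libraries. In CD103+ against CD11b+ DC, 14 of 36 genes (38.9%) had every CD103+ DC library above both CD11b+ DC libraries, against a background of 14.3% of all genes. Another 4 (11.1%) had every one below, against 13.9%. In CD8a+ against CD11b+ DC the counts were 8 above (22.2%, background 10.9%) and 3 below (8.33%, background 17.2%). In CD103+ against CD8a+ DC they were 1 above (2.78%, background 10.7%) and 2 below (5.56%, background 5.92%).

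The call rules differed in how many genes of the set they passed. edgeR's quasi-likelihood test on the recovered reads passed 0, 1 and 2 of the 33 genes it tested for CD103+ over CD8a+, CD103+ over CD11b+ and CD8a+ over CD11b+ DC, where it passed 1.7%, 0.422% and 2.44% of all genes. DESeq2 on the same reads passed 0 of 33, 3 of 32 and 5 of 32 genes with an adjusted p, where it passed 5.72%, 2.62% and 7.05% of all genes. In the authors' deposited table, 0 of 31 genes of the set with an adjusted p were under 0.05 for CD103+ over CD8a+ DC, 3 of 29 for CD103+ over CD11b+ DC (Nars, Psat1 and Slc7a11) and 5 of 31 for CD8a+ over CD11b+ DC (those 3 with Cars and Sesn2), where 5.92%, 2.93% and 7.41% of all genes with an adjusted p were.

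Among the transporters, Slc7a11 (ENSMUSG00000027737, chr3:49892526-50443614, minus strand, GRCm38) imports cystine, the oxidised form of cysteine, in exchange for glutamate and so supplies glutathione synthesis. It had 0.730, 1.74 and 1.54 CPM with CD103+ DC, 3.01, 2.87 and 2.87 CPM with CD8a+ DC, and 18.4 and 10.2 CPM with CD11b+ DC. The 3 groups did not overlap, with both CD11b+ DC libraries far above every other and all CD103+ DC libraries below all CD8a+ DC libraries. Those values rest on 79 reads in the CD103+ DC libraries together, 166 in the CD8a+ DC libraries and 559 in the CD11b+ DC libraries. The log2 fold change was -3.40 ± 0.59 (SE) for CD103+ over CD11b+ DC, 10.6-fold lower, and passed (adjusted p = 0.0233, limma-trend). It was -2.17 ± 0.59 for CD8a+ over CD11b+ DC (adjusted p = 0.0873, limma-trend, and 0.0341 by edgeR) and -1.24 ± 0.53 for CD103+ over CD8a+ DC (adjusted p = 0.329, limma-trend), neither of which passed in limma-trend. Its direction for CD103+ over CD11b+ DC was the same without any single library. The call was lost on leaving out any CD103+ DC library (adjusted p = 0.0906, 0.0985 and 0.0939 without replicates 1, 2 and 3, limma-trend). Those fits passed 5, 2 and 2 genes of the whole table, beside 63 in the main fit. The call was also lost without CD11b+ DC replicate 2 or 3, where the log2 fold change was -2.98 or -3.83. With 1 library left in that group, those fits cannot decide the call.

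The DC markers did not all follow 1 order of groups. Of the 18 DC markers with any reads, 11 had their highest group mean with CD103+ DC, 2 with CD8a+ DC and 5 with CD11b+ DC. Among the 11, Cd74 averaged 52.4 CPM with CD103+ DC, 17.8 CPM with CD8a+ DC and 22.1 CPM with CD11b+ DC, and Flt3 averaged 26.0, 7.89 and 13.3 CPM in the same order of groups. Among the 5, Ccl22 averaged 152 CPM with CD103+ DC, 60.03 CPM with CD8a+ DC and 268 CPM with CD11b+ DC. Another 2 of the 5, Sirpa and Ccl17, are given in every library and were chosen after their values were seen. Sirpa, a defining marker of CD11b+ DC, had 0, 0.104 and 0 CPM with CD103+ DC, 0 CPM in each CD8a+ DC library, and 1.86 and 3.70 CPM with CD11b+ DC. Ccl17, a chemokine of migratory DC, had 0, 0.104 and 0.895 CPM with CD103+ DC, 0.0628, 0 and 0.104 CPM with CD8a+ DC, and 8.36 and 3.64 CPM with CD11b+ DC. The sum over the whole DC list overlapped between the CD103+ and CD11b+ DC groups, at 515 to 628 CPM and 514 to 652 CPM. The part of DC transcripts in the Slc7a11 difference was not tested.

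The promoter of Slc7a11 is shown because it holds the ATF4 motif on both strands. RefSeq promoters (GRCm38.p6, 250 bases before to 50 after the annotated start) were given for 28 of the 36 genes, not including Cars, Cth, Lars, Nars, Slc1a5, Slc38a1, Slc7a5 and Wars. The motif searched was the C/EBP-ATF response element TGATGNAA on both strands (TTNCATCA on the other). It was found in 10 of the 28 genes (35.7%), against 4.51% of the 27025 genes and 3.97% of the 32851 promoters of the table. The set was chosen in part for known ATF4 targets, so a higher share was built into that choice and is not a finding about these cells. The 10 were Aars, Asns, Chac1, Gars, Iars, Pycr1, Slc7a11, Tars, Trib3 and Yars, and Slc7a11 and Aars had 2 matches each, as at least 2 were found in 23 genes of the table. A match is a string of letters and not a measured binding site. The 250 bases before the start of Slc7a11 (chr3:50443614-50443863, minus strand), with both matches in capitals, and 28-base windows around the match in Asns (chr6:7693215-7693242, minus strand), Chac1 (chr2:119351039-119351066, plus strand), Trib3 (chr2:152344029-152344056, minus strand) and Iars (chr13:49682127-49682154, plus strand) read, from 5′ to 3′:
Slc7a11: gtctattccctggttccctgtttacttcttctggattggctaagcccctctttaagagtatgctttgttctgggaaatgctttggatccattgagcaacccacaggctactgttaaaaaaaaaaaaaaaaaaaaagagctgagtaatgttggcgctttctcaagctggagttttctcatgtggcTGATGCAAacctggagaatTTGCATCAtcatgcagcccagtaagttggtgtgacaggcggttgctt
Asns: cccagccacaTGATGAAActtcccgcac
Chac1: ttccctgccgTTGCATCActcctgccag
Trib3: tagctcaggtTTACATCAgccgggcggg
Iars: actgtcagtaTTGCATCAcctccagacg
Counted from the start base as 0, the Slc7a11 matches lay at -66 to -59 and -47 to -40, the Asns match at -23 to -16, the Chac1 match at -193 to -186, the Trib3 match at 14 to 21 and the Iars match at 7 to 14. Of the 10 genes with the motif, Slc7a11 alone passed in limma-trend, and only for CD103+ over CD11b+ DC. The log2 fold change for CD103+ over CD11b+ DC was -3.40 for Slc7a11, 0.15 for Asns, 1.76 for Chac1, -1.70 for Trib3 and 0.45 for Iars, and it was 0.44 for Aars, 0.22 for Gars, -0.91 for Pycr1, 0.26 for Tars and 0.04 for Yars. The 95% intervals of Chac1 (-1.01 to 4.53) and Trib3 (-4.24 to 0.83) both span 0.

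Slc7a1 (CAT1, the main importer of arginine and lysine) had 161, 167 and 156 CPM with CD103+ DC, 96.7, 66.1 and 172 CPM with CD8a+ DC, and 107 and 82.8 CPM with CD11b+ DC. Every CD103+ DC library was above both CD11b+ DC libraries, while CD8a+ DC replicate 3 stood above all CD103+ DC libraries and the other CD8a+ DC libraries below them. The log2 fold change was 0.59 ± 0.24 (SE) for CD103+ over CD8a+ DC (adjusted p = 0.312, limma-trend) and 0.77 ± 0.27 for CD103+ over CD11b+ DC (adjusted p = 0.358, limma-trend), and neither passed. Without CD8a+ DC replicate 3 it was 0.95 for CD103+ over CD8a+ DC and passed (adjusted p = 0.00964, limma-trend). For CD103+ over CD11b+ DC it passed without that library (adjusted p = 0.0369, limma-trend) and in a fit of those 2 groups only (0.00915).

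Slc7a5 (LAT1, importer of leucine and other large neutral amino acids) and Slc3a2 (CD98, the heavy chain that LAT1 and xCT both need at the membrane) gave no call in any comparison by limma-trend, edgeR or DESeq2. Slc7a5 had 44.6, 53.1 and 40.9 CPM with CD103+ DC, 32.2, 44.7 and 46.3 CPM with CD8a+ DC, and 33.3 and 32.6 CPM with CD11b+ DC, so that CD103+ DC libraries stood above CD11b+ DC libraries by log2 0.47 ± 0.22 (SE, adjusted p = 0.52, limma-trend). Slc3a2 had 36.2, 42.6 and 33.1 CPM with CD103+ DC, 37.2, 26.4 and 34.5 CPM with CD8a+ DC, and 53.4 and 34.0 CPM with CD11b+ DC, and all groups overlapped. Its log2 fold change for CD103+ over CD11b+ DC was -0.21 with a 95% interval of -0.72 to 0.30 that does not reach the -3.40 of Slc7a11.

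Slc1a5 (ASCT2, a carrier of glutamine and other neutral amino acids) had 96.4, 114 and 101 CPM with CD103+ DC, 88.2, 77.6 and 97.9 CPM with CD8a+ DC, and 124 and 119 CPM with CD11b+ DC. Both CD11b+ DC libraries were above all others. The log2 fold change was -0.42 ± 0.15 (SE) for CD8a+ over CD11b+ DC (adjusted p = 0.203, limma-trend) and -0.23 ± 0.15 for CD103+ over CD11b+ DC (adjusted p = 0.709, limma-trend), and neither passed. Slc38a1 and Slc38a2, sodium-coupled carriers of glutamine and alanine, had the highest CPM of the transporters, at 283 to 393 and 182 to 240 CPM over all libraries, and their largest log2 fold change was 0.24, in Slc38a2 for CD8a+ over CD11b+ DC. The 7 transporters together summed to 926 ± 39.7 CPM with CD103+ DC, 810 ± 120 CPM with CD8a+ DC and 828 ± 37.4 CPM with CD11b+ DC (SD, n = 3, 3 and 2).

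**Figure D2:**
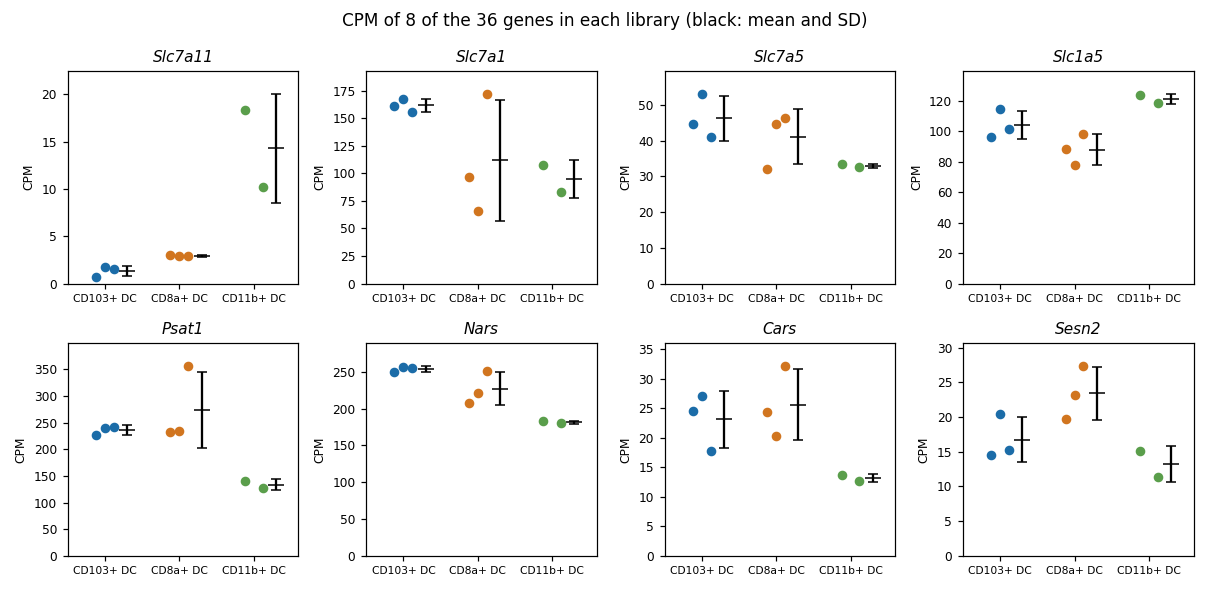
CPM (y axis, from 0) of 8 of the 36 genes in each library, by DC partner (x axis), with 3, 3 and 2 points a group and the group mean and SD in black. Slc7a11 reaches 18.4 and 10.2 CPM with CD11b+ DC and stays at or below 3.01 CPM elsewhere, while Psat1 is lowest with CD11b+ DC, at 141 and 127 CPM.

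In the serine and one-carbon group, Psat1 (ENSMUSG00000024640, chr19:15904678-15947337, minus strand, GRCm38) catalyses the transamination step between Phgdh and Psph. It had 226, 240.4 and 242 CPM with CD103+ DC, 233, 234 and 357 CPM with CD8a+ DC, and 141 and 127 CPM with CD11b+ DC. Both CD11b+ DC libraries were below all others, and CD8a+ DC replicate 3 stood apart at the top. The log2 fold change was 1.06 ± 0.17 (SE) for CD8a+ over CD11b+ DC, 2.08-fold higher, and passed (adjusted p = 0.00564, limma-trend). For CD103+ over CD11b+ DC it was 0.81 ± 0.17, with an adjusted p of 0.0598 in limma-trend, and for CD103+ over CD8a+ DC it was -0.24 with a 95% interval of -0.56 to 0.07 (adjusted p = 0.53, limma-trend). The call for CD8a+ over CD11b+ DC was lost in a limma-trend fit of those 2 groups only (adjusted p = 0.0524). That fit passed 81 genes of the whole table, beside 374 in the main fit. The call was also lost without CD11b+ DC replicate 2 or 3, where the log2 fold change was 1.13 or 0.98. With 1 library left in that group, those fits cannot decide the call. The difference for CD103+ over CD11b+ DC passed by DESeq2 (adjusted p = 0.00162), in a limma-trend fit of those 2 groups only (0.00199), with a filter at a mean of 10 (0.045), and without CD8a+ DC replicate 2 (0.0355) or 3 (0.00341). Neither of the 2 promoters given for Psat1 held TGATGNAA. The 250 bases before the first of them (chr19:15925060-15925309, minus strand, RefSeq, GRCm38.p6), all in lower case for lack of a match and shown to set beside that of Slc7a11, read, from 5′ to 3′:
Psat1: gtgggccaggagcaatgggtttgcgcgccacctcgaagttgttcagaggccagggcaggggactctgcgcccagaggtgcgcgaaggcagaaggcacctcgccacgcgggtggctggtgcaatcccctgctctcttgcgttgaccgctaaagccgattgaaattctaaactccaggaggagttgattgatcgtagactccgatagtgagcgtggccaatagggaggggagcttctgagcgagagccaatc

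The other 6 genes of the group gave no call by limma-trend, edgeR or DESeq2, and at an unadjusted p under 0.05 Mthfd1l for CD8a+ over CD11b+ DC was the 1 among them. Phgdh, the first and committed enzyme of serine synthesis, had 10.7, 12.9 and 12.3 CPM with CD103+ DC, 13.0, 8.51 and 14.5 CPM with CD8a+ DC, and 12.04 and 7.23 CPM with CD11b+ DC, with overlap between all groups. Psph, the last enzyme, had 36.5 to 70.0 CPM over all libraries, also with overlap. Part of the Psph exons, 10.4%, lies opposite an exon of a processed transcript of Cct6a, and whether counting used strand is not given in the sources used here.

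Shmt2, which splits serine to glycine and a one-carbon unit in mitochondria, had 130.4, 127 and 101 CPM with CD103+ DC, 107, 83.0 and 171 CPM with CD8a+ DC, and 78.9 and 95.5 CPM with CD11b+ DC. All 3 CD103+ DC libraries were above both CD11b+ DC libraries (log2 0.45 ± 0.23 SE, adjusted p = 0.616, limma-trend), and the CD8a+ DC libraries lay on both sides of the CD103+ DC range. Mthfd1l, which releases formate from mitochondria, had 82.2, 91.4 and 74.8 CPM with CD103+ DC, 77.2, 72.5 and 120.1 CPM with CD8a+ DC, and 66.9 and 65.9 CPM with CD11b+ DC. Its CD11b+ DC libraries were below all others, by log2 0.31 ± 0.20 for CD103+ over CD11b+ DC and 0.45 ± 0.20 (SE, adjusted p = 0.336, limma-trend) for CD8a+ over CD11b+ DC. Mthfd2, its partner in the mitochondrial folate pathway, ran from 25.2 to 41.0 CPM and Shmt1, the cytosolic form of Shmt2, from 16.8 to 37.1 CPM over all libraries. Of the 7 genes, 7 had a log2 fold change above 0 for CD103+ over CD11b+ DC (median 0.34), 5 for CD8a+ over CD11b+ DC (median 0.37) and 3 for CD103+ over CD8a+ DC (median -0.01), beside 49.0%, 46.1% and 51.8% of all genes tested. Their CPM summed to 576 ± 14.1 with CD103+ DC, 601 ± 157 with CD8a+ DC and 397 ± 3.64 with CD11b+ DC (SD, n = 3, 3 and 2), with Psat1 the largest item.

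The enzymes of asparagine, proline and cysteine synthesis gave no call by limma-trend, edgeR or DESeq2, and 3 of the 5 were near the limit of detection. At an unadjusted p under 0.05 there was 1, Cth for CD103+ over CD8a+ DC. Asns, the asparagine synthetase and a standard ATF4 target, had 11.9, 15.6 and 21.7 CPM with CD103+ DC, 16.0, 4.37 and 15.3 CPM with CD8a+ DC, and 16.0 and 12.8 CPM with CD11b+ DC. CD8a+ DC replicate 2 stood apart at the bottom and the other libraries overlapped, with a log2 fold change of 0.15 for CD103+ over CD11b+ DC and a 95% interval of -0.88 to 1.17. Aldh18a1, which makes the precursor of proline, had 35.1, 37.8 and 24.03 CPM with CD103+ DC, 23.9, 16.5 and 33.7 CPM with CD8a+ DC, and 34.0 and 26.1 CPM with CD11b+ DC, again with overlap. Cth, which releases cysteine from cystathionine, had 0.0529, 1.53 and 0.399 CPM with CD103+ DC, 0 reads in all 3 CD8a+ DC libraries, and 0.192 and 0.176 CPM with CD11b+ DC. A count of 0 among the 57106202 reads of the CD8a+ DC group allows up to 3 reads, or 0.0525 CPM, by counting error alone. The log2 difference on the normalized count + 1 scale was 2.98 ± 1.03 (SE) for CD103+ over CD8a+ DC and did not pass (adjusted p = 0.211, limma-trend). Cbs, which makes cystathionine, and Pycr1, which completes proline, were below 1 CPM in every library.

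Of ATF4 and its stress targets, none passed in any of the 3 comparisons by limma-trend or edgeR, and Sesn2 passed by DESeq2 for CD8a+ over CD11b+ DC, where 7.05% of all genes did. At an unadjusted p under 0.05 in limma-trend there was 1 for CD103+ over CD8a+ DC, 0 for CD103+ over CD11b+ DC and 1 for CD8a+ over CD11b+ DC, Sesn2 both times, where 13.2%, 9.32% and 13.6% of all genes were. Atf4 had 72.3, 89.4 and 88.1 CPM with CD103+ DC, 86.3, 106 and 98.0 CPM with CD8a+ DC, and 110.5 and 95.6 CPM with CD11b+ DC. All CD103+ DC libraries were below both CD11b+ DC libraries, by log2 -0.32 ± 0.16 (SE, adjusted p = 0.606, limma-trend), and overlapped with the CD8a+ DC libraries. ATF4 is controlled mainly at translation, so its mRNA level does not measure the protein. Sesn2, a leucine sensor that restrains mTORC1 and is induced by ATF4, had 14.6, 20.5 and 15.2 CPM with CD103+ DC, 19.7, 23.2 and 27.4 CPM with CD8a+ DC, and 15.1 and 11.4 CPM with CD11b+ DC. The CD8a+ DC libraries were all above both CD11b+ DC libraries, by log2 0.87 ± 0.28 (SE, adjusted p = 0.154, limma-trend). Its log2 fold change was -0.54 for CD103+ over CD8a+ DC, with a 95% interval of -1.08 to -0.00.

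Ddit3 (CHOP, a factor of the prolonged stress response) had 21.9, 15.7 and 13.6 CPM with CD103+ DC, 18.2, 22.9 and 11.8 CPM with CD8a+ DC, and 25.9 and 16.9 CPM with CD11b+ DC, and all groups overlapped. In GENCODE M21, Ddit3 shares 105 exonic bases (6.13%) on the same strand with another protein-coding entry of that name, so its value is uncertain. It also shares 68 exonic bases with Mars on the opposite strand, so reads there cannot be assigned if counting ignored strand. Trib3, a pseudokinase that feeds back on ATF4, had 3.24, 1.54 and 0.0479 CPM with CD103+ DC, 5.77, 3.78 and 1.49 CPM with CD8a+ DC, and 2.48 and 2.65 CPM with CD11b+ DC. The CD103+ DC libraries alone spread over more than the whole difference between groups. Chac1, which degrades glutathione, had 0.159, 1.33 and 0 CPM with CD103+ DC, 0.0628, 0 and 0.162 CPM with CD8a+ DC, and 0.048 and 0 CPM with CD11b+ DC, and CD103+ DC replicate 2 held most of its reads. At this depth no difference in Chac1 was detectable, with a 95% interval of -1.01 to 4.53 for the log2 fold change of CD103+ over CD11b+ DC.

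**Figure D3:**
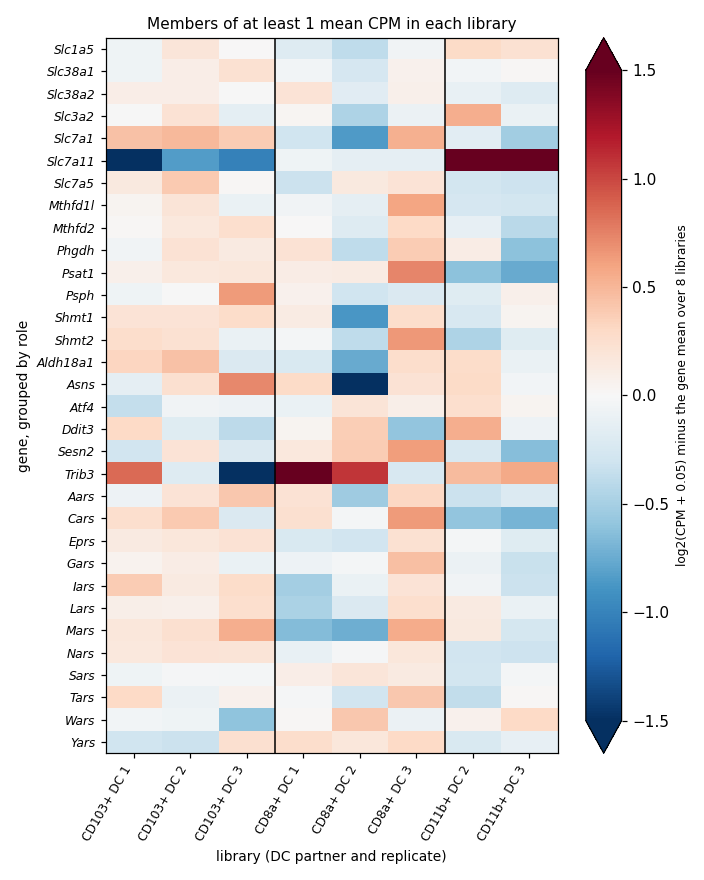
Level of 32 of the 36 genes (rows, by role) in each of the 8 libraries (columns, by DC partner). Cbs, Chac1, Cth and Pycr1, each under 1 CPM on average, are left out. Values are the log2 of CPM with a small constant added, minus the gene's mean over the libraries. The Slc7a11 row is high in both CD11b+ DC libraries, and CD8a+ DC replicates 2 and 3 differ across many rows.

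The 12 tRNA synthetases gave no call by limma-trend or edgeR, and 9 of them (75%) had their lowest group mean with CD11b+ DC, where 32.9% of all genes tested did. At an unadjusted p under 0.05 in limma-trend there was 1 of 12 for CD103+ over CD8a+ DC, 3 for CD103+ over CD11b+ DC and 5 for CD8a+ over CD11b+ DC, where 13.2%, 9.32% and 13.6% of all genes were. Nars, for asparagine, had 249, 257 and 256 CPM with CD103+ DC, 208, 222 and 251 CPM with CD8a+ DC, and 183 and 180.0 CPM with CD11b+ DC. The CD11b+ DC libraries were below all others, by log2 0.48 ± 0.12 (SE) for CD103+ over CD11b+ DC (adjusted p = 0.149, limma-trend) and 0.37 ± 0.12 for CD8a+ over CD11b+ DC (adjusted p = 0.171, limma-trend). Cars, for cysteine, had 24.5, 27.1 and 17.7 CPM with CD103+ DC, 24.4, 20.3 and 32.2 CPM with CD8a+ DC, and 13.6 and 12.7 CPM with CD11b+ DC. Its CD11b+ DC libraries were again below all others, by log2 0.78 ± 0.28 (SE) for CD103+ over CD11b+ DC (adjusted p = 0.351, limma-trend) and 0.98 ± 0.28 for CD8a+ over CD11b+ DC (adjusted p = 0.0982, limma-trend). Cars was 1 of the 9 synthetases with their lowest group mean with CD11b+ DC, and its log2 fold changes were the largest of the 12 in both comparisons with CD11b+ DC. DESeq2 passed Nars in both of these comparisons, where it passed 2.62% and 7.05% of all genes, and Cars for CD8a+ over CD11b+ DC.

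Iars, for isoleucine, had 179.7, 152 and 167 CPM with CD103+ DC, 96.9, 129 and 159 CPM with CD8a+ DC, and 133 and 110.2 CPM with CD11b+ DC, so that all CD103+ DC libraries were above both CD11b+ DC libraries (log2 0.45 ± 0.19 SE, adjusted p = 0.466, limma-trend). Wars, for tryptophan, which interferon gamma is known to induce, went the other way. It had 51.0, 49.97 and 34.4 CPM with CD103+ DC, 53.1, 69.5 and 49.3 CPM with CD8a+ DC, and 54.7 and 64.5 CPM with CD11b+ DC, and its log2 fold change was -0.43 ± 0.22 (SE) for CD103+ over CD11b+ DC (adjusted p = 0.616, limma-trend). Wars was the 1 synthetase of the 12 with a log2 fold change below 0 in that comparison, where the median of the 12 was 0.27. For CD8a+ over CD11b+ DC 9 of 12 were above 0 (median 0.29), and for CD103+ over CD8a+ DC 6 of 12 were (median 0.05). The remaining 8, Aars, Eprs, Gars, Lars, Mars, Sars, Tars and Yars, had log2 fold changes between -0.43 and 0.54 in all 3 comparisons. Aars shares 14.3% of its exonic bases with Exosc6 on the same strand, so its value is uncertain. The 12 summed to 1449 ± 28.8 CPM with CD103+ DC, 1326 ± 218 CPM with CD8a+ DC and 1184 ± 38.6 CPM with CD11b+ DC (SD, n = 3, 3 and 2).

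Per length of exon, the 36 genes spanned a wide range of levels. Psat1 was the highest by its mean over all libraries, at 52.9 CPM per kb of exon, followed by Nars at 51.8, Gars at 40.5, Atf4 at 39.6 and Shmt2 at 35.9 CPM per kb. The order differed between groups. Nars was first and Psat1 second with CD103+ DC, at 58.3 and 55.5 CPM per kb, and Psat1 was first and Nars second with CD8a+ DC, at 64.5 and 52.1 CPM per kb. With CD11b+ DC, Atf4 came first at 43.7 CPM per kb, then Nars at 41.7, Gars at 34.9 and Psat1 at 31.4 CPM per kb. At the low end were Slc7a11 at 0.371, Chac1 at 0.135, Cth at 0.105, Pycr1 at 0.0852 and Cbs at 0.0221 CPM per kb. The largest log2 fold change of the set by limma-trend, that of Slc7a11, thus belongs to 1 of its lowest transcripts. Among the transporters the mean was highest for Slc1a5 at 24.5 and Slc38a2 at 23.6 CPM per kb, and lower for Slc7a5 at 11.05, Slc7a1 at 10.9 and Slc3a2 at 10.5 CPM per kb. Slc3a2 was therefore far above Slc7a11 as a level per length in these T cells.

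**Figure D4:**
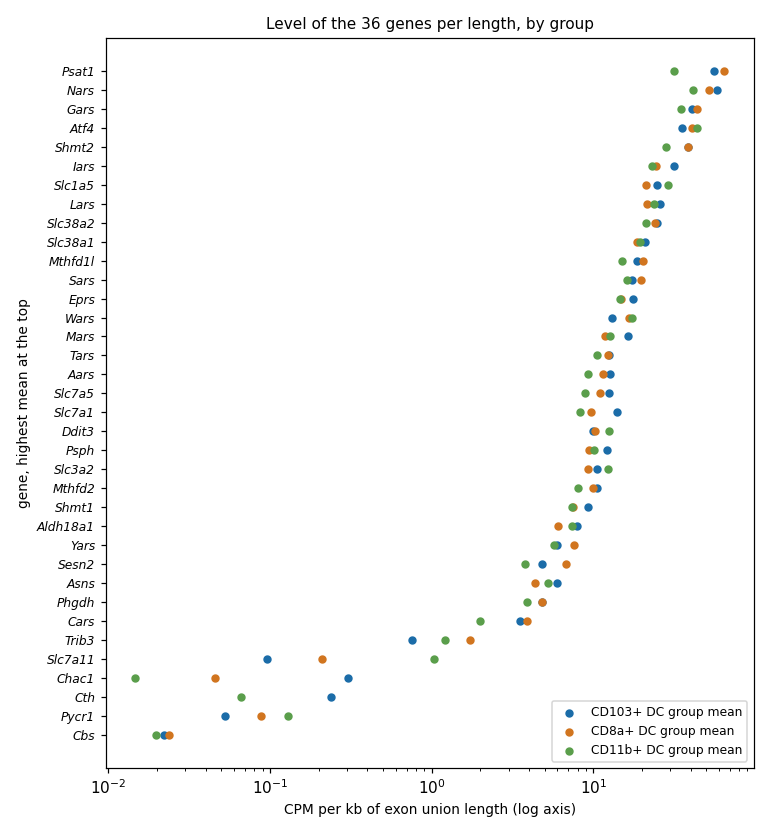
Mean level of each of the 36 genes per DC partner, as CPM per kb of exon on a log axis (x axis), with genes ordered by their mean over all libraries down the page. Points of the 3 groups lie close together for most genes and far apart for Slc7a11 and for Chac1, which had few reads. Cth has no point for CD8a+ DC because it had no reads there.

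The library most often highest in the set and the library most often lowest belonged to the same group. Of the 32 genes with a mean of at least 1 CPM, CD8a+ DC replicate 3 had the highest CPM of the 8 libraries in 13 and CD8a+ DC replicate 2 the lowest in 11. CD11b+ DC replicate 3 was the lowest in 9 and the highest in none. The sum over the serine and one-carbon group was 480.0 CPM in CD8a+ DC replicate 2 and 779 CPM in replicate 3, and that over the synthetases was 1205 and 1577 CPM in those replicates. Mitochondrially encoded genes took 11.8% of reads in CD8a+ DC replicate 2 and 9.12% in replicate 3. The DC markers summed to 390 CPM in CD8a+ DC replicate 2 and 189 CPM in replicate 3. The part of either in the difference between these 2 libraries was not tested. Without CD8a+ DC replicate 3, the counts of the set that passed were 2 for CD103+ over CD8a+ DC (Slc7a1 and Mars) and 4 for CD103+ over CD11b+ DC. Calls over all genes rose in that fit as well, from 273 to 480 for CD103+ over CD8a+ DC and from 63 to 238 for CD103+ over CD11b+ DC.

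Around the 36 genes, 7 further lists of the same metabolism were counted, with few calls. Of 13 other amino acid transporters tested, 1 was lower for CD103+ over CD8a+ DC and none passed in the other comparisons. It was Slc43a1 (LAT3, which carries leucine and other neutral amino acids by facilitated diffusion), with 62.5, 44.7 and 70.1 CPM with CD103+ DC, 199, 184 and 115 CPM with CD8a+ DC, and 133 and 111 CPM with CD11b+ DC. All CD103+ DC libraries were below all others, and the log2 fold change was -1.53 ± 0.22 (SE) for CD103+ over CD8a+ DC (adjusted p = 0.00489, limma-trend) and -1.07 ± 0.24 for CD103+ over CD11b+ DC (adjusted p = 0.0896, limma-trend). The call was lost without CD11b+ DC replicate 2 or 3, whose absence leaves the values compared, and the log2 fold change of -1.53, as they were. Calls over all genes also fell in those fits, which cannot decide the call. DESeq2 also passed Slc43a1 for CD103+ over CD11b+ DC, and edgeR passed no other gene of the list than Slc43a1.

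Of 15 folate, methionine and glutathione enzymes, 1 was higher for CD8a+ over CD11b+ DC and none passed in the other comparisons. It was Tyms, the thymidylate synthase that uses a one-carbon unit to make dTMP, with 137, 154 and 145 CPM with CD103+ DC, 222, 122 and 213 CPM with CD8a+ DC, and 88.6 and 87.5 CPM with CD11b+ DC. The CD11b+ DC libraries were below all others, by log2 1.08 ± 0.20 (SE) for CD8a+ over CD11b+ DC (adjusted p = 0.0129, limma-trend). The call was lost in a limma-trend fit of those 2 groups only (adjusted p = 0.0868), which passed 81 genes of the whole table, beside 374 in the main fit. It was also lost without CD11b+ DC replicate 2 or 3, where the log2 fold change was 1.09 or 1.07. With 1 library left in that group, those fits cannot decide the call. edgeR passed the same gene, and DESeq2 added Tyms for CD103+ over CD11b+ DC and Gsr for CD8a+ over CD11b+ DC. None passed by limma-trend or edgeR in any comparison among 9 other cytosolic tRNA synthetases, 17 mitochondrial tRNA synthetases, 17 enzymes of glutamine, aspartate, branched-chain and arginine metabolism, 17 other ATF4 and integrated stress response genes, and 11 Myc and mTORC1 genes. At an unadjusted p under 0.05 these 5 lists had 0, 2, 3, 1 and 1 genes for CD103+ over CD8a+ DC, 1, 0, 3, 1 and 1 for CD103+ over CD11b+ DC, and 2, 2, 4, 2 and 1 for CD8a+ over CD11b+ DC, where 13.2%, 9.32% and 13.6% of all genes were under it. DESeq2 passed 0, 0, 1, 1 and 1 genes of these lists for CD103+ over CD8a+ DC, 0, 0, 1, 0 and 0 for CD103+ over CD11b+ DC, and 0, 0, 1, 2 and 1 for CD8a+ over CD11b+ DC, where it passed 5.72%, 2.62% and 7.05% of all genes. The 9 other cytosolic synthetases had log2 fold changes above 0 in 9 for CD103+ over CD11b+ DC (median 0.25), while of the 17 mitochondrial ones 8 were above 0 (median -0.00).

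**Figure D5:**
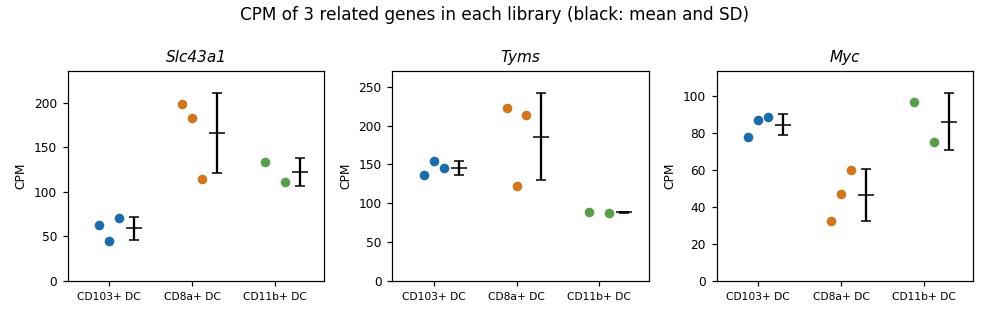
CPM (y axis, from 0) of Slc43a1, Tyms and Myc in each library, by DC partner (x axis), with the group mean and SD in black. Slc43a1 is lowest with CD103+ DC, at 44.7 to 70.1 CPM, Tyms is lowest with CD11b+ DC, at 88.6 and 87.5 CPM, and Myc is lowest with CD8a+ DC, at 32.3 to 60.1 CPM.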

How the data were processed

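RNA-seq libraries of sorted OT-I CD8+ T cells were grouped by the DC partner in the labels. Alignment used STAR 2.4.2a to GRCm38 and DESeq2 was also used, per the submitters' processing notes. Not given in the sources used here are the read counter, its annotation release and its handling of strand. The deposited signal values are counts per gene that the authors divided by 1 size factor per library, and 100% of the values checked came out as whole reads within 0.1 read, so reads were recovered for the count tests. The deposited table also holds variance-stabilized log2 values, not used in a test, the authors' log2 fold changes and linear fold changes (ratio), the authors' p-values and FDR, and the GC percent of each gene as deposited, which was not used.

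limma 3.58.1 (R 4.3.3) was fitted with trend to log2(normalized count + 1) of 18971 genes with a mean of at least 1, over all 8 libraries with 3 group means and 5 residual degrees of freedom. The pseudocount of 1 shrinks fold changes of genes with few counts, but their fold changes here can still exceed other estimates. For Trib3, the log2 fold change for CD103+ over CD8a+ DC was -2.06 here and -1.25 in the authors' table. Library size and TMM scaling, pseudocounts, filters, edgeR 4.0.16 (quasi-likelihood) and DESeq2 1.42.0 on recovered reads were tried. So were a fit of 2 groups only, a replicate block and leaving out each library. Of these fits, only the main limma-trend fit was run on simulated reads, which had the same dispersion set for every gene, unlike real data. Depth was 16293042 to 21973391 reads, and the limit for 0 reads covers counting error only. Exon lengths came from GENCODE M21. The members and lists, and the rule for the genes given in every library (those that passed, the 3 with the smallest p in each role, and a set of standard genes), were chosen with earlier results of these data known. Castor1 was not analysed here, and 1 further gene is not reported here.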

Additional observations from a re-analysis of the deposited data

How the results depend on the processing

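Of 1176 single-gene values under an alternative, 30 changed sign, over 17 gene and comparison pairs, and none of the 30 passed. For the 36 genes, the count that passed between CD103+ and CD8a+ DC was 0 and ranged from 0 to 2 on leaving out each library in turn. Between CD103+ and CD11b+ DC it was 1, and was 2 with a mean of at least 10, 3 by DESeq2, 4 with only those groups fitted, 0 with the replicate block, and 0 to 4 on leaving out each library. Between CD8a+ and CD11b+ DC it was 1, and was 2 by edgeR, 5 by DESeq2, 0 with only those groups fitted, and 0 to 1 on leaving out each library. Over all genes, the 273 calls for CD103+ over CD8a+ DC were 159 without a filter, 843 by DESeq2, 181 with only those groups fitted, 181 with the replicate block and 3 to 480 without each library in turn. The 63 calls for CD103+ over CD11b+ DC were 364 by DESeq2, 340 with only those groups fitted and 0 to 238 without each library. The 374 calls for CD8a+ over CD11b+ DC were 948 by DESeq2, 81 with only those groups fitted and 0 to 537 without each library. The cause was not tested, except that leaving out a CD11b+ DC library leaves 1 in that group, which is then assumed to vary like the others. Library size scaling moved the split of higher to lower calls to 210 and 74, beside 169 and 104, for CD103+ over CD8a+ DC, and to 166 and 215, beside 203 and 171, for CD8a+ over CD11b+ DC.

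The labels do not say whether replicate numbers pair the libraries. No shared replicate effect was seen, as the deviations of same-numbered libraries from their group means correlated at -0.0309 to 0.0226. With so few libraries in a group, such values cannot exclude pairing. With the replicate block the log2 fold change of Slc7a11 for CD103+ over CD11b+ DC was -3.23 (adjusted p = 0.0707, limma-trend). Depth limits Cbs, Chac1, Cth and Pycr1, each under 1 CPM on average.

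The sign changes came in genes with no call. Outside leaving out a library they were a log2 fold change of 0.047 for Atf4 and -0.35 for Trib3 with the replicate block, for CD8a+ over CD11b+ DC, and 0.050 for Shmt2 with library size scaling, for CD103+ over CD8a+ DC. On leaving out each library, the log2 fold change for CD103+ over CD8a+ DC ran from -0.012 to 0.89 for Asns, -0.058 to 2.27 for Chac1, -0.36 to 0.15 for Ddit3, -0.26 to 0.075 for Mthfd1l, -0.22 to 0.27 for Shmt2 and -0.055 to 0.21 for Slc7a5. For CD103+ over CD11b+ DC it ran from -0.11 to 0.28 for Aldh18a1, -0.082 to 0.35 for Asns, -0.11 to 1.82 for Cth and -0.53 to 0.12 for Slc3a2. For CD8a+ over CD11b+ DC it ran from -0.74 to 0.16 for Asns, -0.15 to 0.064 for Atf4, -0.56 to 0.064 for Ddit3, -0.058 to 0.30 for Iars, -0.18 to 0.48 for Slc7a1, -0.047 to 0.91 for Trib3 and -0.18 to 0.10 for Wars. The cause was not tested.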

Other observations

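The 3 genes Myc, Stc2 and Odc1 of the wider amino acid and ATF4 lists, picked after their values were seen, had levels that set 1 group apart without passing in limma-trend, and DESeq2 passed each of them in the comparisons given here. Myc, which drives amino acid transport in activated T cells, had 78.1, 87.1 and 89.0 CPM with CD103+ DC, 32.3, 47.2 and 60.1 CPM with CD8a+ DC, and 97.2 and 75.4 CPM with CD11b+ DC, so every CD8a+ DC library was below all others. Its log2 fold change was 0.85 ± 0.21 (SE) for CD103+ over CD8a+ DC (adjusted p = 0.0614, limma-trend) and -0.87 ± 0.23 for CD8a+ over CD11b+ DC (adjusted p = 0.0747, limma-trend). Stc2, a secreted glycoprotein and ATF4 target, had 2.35, 1.44 and 1.69 CPM with CD103+ DC, 0.492, 0 and 0.104 CPM with CD8a+ DC, and 2.53 and 2.999 CPM with CD11b+ DC, and its log2 fold change was -4.06 ± 1.03 (SE) for CD8a+ over CD11b+ DC (adjusted p = 0.0641, limma-trend).

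Odc1, the first enzyme of polyamine synthesis and a Myc target, had 105.3, 107 and 83.5 CPM with CD103+ DC, 60.2, 50.7 and 80.4 CPM with CD8a+ DC, and 56.1 and 48.5 CPM with CD11b+ DC. All CD103+ DC libraries were above all others, with a log2 fold change of 0.90 ± 0.20 (SE) for CD103+ over CD11b+ DC (adjusted p = 0.0809, limma-trend). Odc1 and Myc were thus both high with CD103+ DC, while with CD11b+ DC Myc was high and Odc1 was not. A link between the levels of Myc and Odc1 was not tested.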
